A study of Mus musculus with 2 samples.

Results

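The Mir200 family consists of 5 miRNA hairpins, Mir200b, Mir200a, Mir429, Mir200c and Mir141, and its members were found by name among 1638 miRNA features of a mouse smRNA-seq table, in which each of the 5 names occurred once. The table holds 1 library of wild-type mESCs (embryonic stem cells of the established mouse line E14) and 1 library of wild-type E15.5 male germ cells of the C57Bl/6J strain. The embryos came from females that carried an Oct-4/GFP transgene active in the developing gonad, and how many were pooled is not given in the sources used here. The sample labels name these cells primordial germ cells, and they are named prospermatogonia here, after the study. The methods describe feeder-free naive culture of E14 cells with LIF and inhibitors of MEK and GSK3, but the labels do not give the culture of this library. The mESC library comes from 1 cell line, so that strain, culture and cell type differ together between the libraries and cannot be told apart. With 1 library per cell type, no difference between them has a replicate check and no test across cell types was possible. Values are given in reads and in RPM (reads scaled to a library of 1000000 reads), and the 95% intervals cover counting error only. They treat each read as an independent molecule, which reads copied by PCR are not, so that they may be too narrow.

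miRNAs are short RNAs that are cut from hairpin precursors and guide repressor proteins to mRNAs, mainly by pairing of the seed, bases 2 to 8 of the mature RNA, with the target. The Mir200 family is known for its role in epithelial cells, where it represses Zeb1 and Zeb2, transcription factors that switch off the E-cadherin gene Cdh1 and promote the change from an epithelial to a mesenchymal state. Zeb1 and Zeb2 in turn repress the genes of the family, so that both sides hold each other down. mESCs grow as compact colonies joined by E-cadherin, whereas germ cells of the fetal testis lie within cords of Sertoli cells.

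The 5 hairpins lie in a pair of clusters, and their mature 3p arms fall into a pair of seed groups that cut across these clusters. The mature 3p sequences are shown because the seed defines the groups compared below. They were taken from RefSeq (GRCm38.p6), in which all 5 members matched by symbol and by position, and the seed is in capitals.
Mir200b (seed AAUACUG): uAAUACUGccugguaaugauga
Mir429 (seed AAUACUG): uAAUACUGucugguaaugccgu
Mir200c (seed AAUACUG): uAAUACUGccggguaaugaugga
Mir200a (seed AACACUG): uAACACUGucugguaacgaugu
Mir141 (seed AACACUG): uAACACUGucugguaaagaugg

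Counted from 1 at the 5′ end, the seeds differed by the single substitution U4C, from the AAUACUG to the AACACUG group. Within the first group, Mir200c differed from Mir200b by U11G and A22G over the 22 bases compared, and is 1 base longer. Mir429 differed from Mir200b at 4 bases, all outside the seed. Within the other group, Mir141 differed from Mir200a by C17A and U22G. Among 1738 mature mouse miRNAs of RefSeq, 3 carried the seed AAUACUG and 2 the seed AACACUG, and these were the 5 family members. The 5p arms did not follow this grouping. Mir200b and Mir200a share the 5p seed AUCUUAC, and the 5p seeds of Mir429, Mir200c and Mir141 were each different. The deposited table has 1 row per hairpin and does not separate the arms, so that a seed group here means all reads of hairpins whose 3p arm carries that seed.

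The longest stretch shared by any 2 hairpins of the family was 17 nt, between Mir200a and Mir141, followed by 14 nt between Mir200b and Mir200c. No stretch longer than 11 nt was shared with any of 1000 other hairpins. A read that spans a whole mature 3p arm is therefore found in only 1 of these hairpins without mismatch, whereas the assignment of shorter reads, and the mismatches allowed by the authors, were not given in the sources used here. To show what the hairpins look like, the Mir200b and Mir141 precursors are given with the mature 3p arm in capitals.
Mir200b hairpin: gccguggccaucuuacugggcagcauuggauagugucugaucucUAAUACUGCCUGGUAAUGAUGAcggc
Mir141 hairpin: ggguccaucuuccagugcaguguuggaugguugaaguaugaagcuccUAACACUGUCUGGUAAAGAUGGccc

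On GRCm38, the first cluster lies on the minus strand of chromosome 4. Mir200b is at chr4:156055681-156055750, Mir200a at chr4:156054896-156054985 and Mir429 at chr4:156053905-156053987, with 695 nt and 908 nt between neighbors. GENCODE vM21 places all 3 within the noncoding gene Gm13648 and within introns of Ttll10. Mir429 lies in exon 2 of Gm13648, and Mir200a and Mir200b lie in its intron. The other cluster lies on the minus strand of chromosome 6, with Mir200c at chr6:124718322-124718390 and Mir141 at chr6:124717914-124717985, 336 nt apart. Both lie in an intron of the noncoding gene Gm15884, and part of Mir141 overlaps an exon of the unclassified transcript Gm29008.

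Since the members of the chromosome 4 cluster share an annotated host transcript, the RefSeq promoter window of Gm13648 is shown (chr4:156059753-156060052, minus strand, GRCm38.p6, 250 bases before to 50 after the gene start, which lies 4051 nt upstream of Mir200b). It was searched on both strands for CACCTG, which reads CAGGTG when it lies on the opposite strand, the E-box to which Zeb factors are known to bind, and matches are in capitals.
Gm13648 promoter: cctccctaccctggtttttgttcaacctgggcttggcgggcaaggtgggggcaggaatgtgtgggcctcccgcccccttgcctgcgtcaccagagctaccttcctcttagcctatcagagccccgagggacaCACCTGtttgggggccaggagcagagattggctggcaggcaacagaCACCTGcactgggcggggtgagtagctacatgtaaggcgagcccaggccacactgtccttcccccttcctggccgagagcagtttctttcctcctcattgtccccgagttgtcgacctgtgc

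The window held 2 matches, both on the strand of the gene, starting at -118 and -72 relative to the gene start. Of 32851 mouse promoter windows of the same length, 20.2% held at least 1 match and 2.88% held 2 or more. A match is a description of the letters and not a measured binding site. No such window was used for Gm15884.

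Each member had more reads in the mESC library although that library was 6.38-fold shallower (449643 reads against 2869578 reads, if the deposited values are log2 RPM). The members are described here in the order of their mESC level. Mir200b, the highest, had 374 reads in mESCs and 38 in prospermatogonia, corresponding to 832 RPM (95% interval 752 to 920) and 13.2 RPM (9.65 to 18.2). It ranked 32nd of the 1638 features in mESCs and 115th in prospermatogonia. Mir429 had 100 reads in mESCs and 8 in prospermatogonia, or 222 RPM (183 to 270) and 2.79 RPM (1.41 to 5.50). Mir141 had 95 reads and 7 reads, or 211 RPM (173 to 258) and 2.44 RPM (1.18 to 5.04), close to Mir429 in both libraries although it lies on another chromosome. Mir200a had 71 reads and 2 reads, or 158 RPM (125 to 199) and 0.697 RPM (0.191 to 2.54). Mir200c, the lowest in mESCs, had 23 reads and 4 reads, or 51.2 RPM (34.1 to 76.8) and 1.39 RPM (0.542 to 3.58). The intervals of the 2 libraries did not overlap for any of the 5 members. A count of 0 would allow up to 3 reads, equal to 6.67 RPM for mESCs and 1.05 RPM for prospermatogonia, and only Mir200a in prospermatogonia was below that limit.

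**Figure D1:**
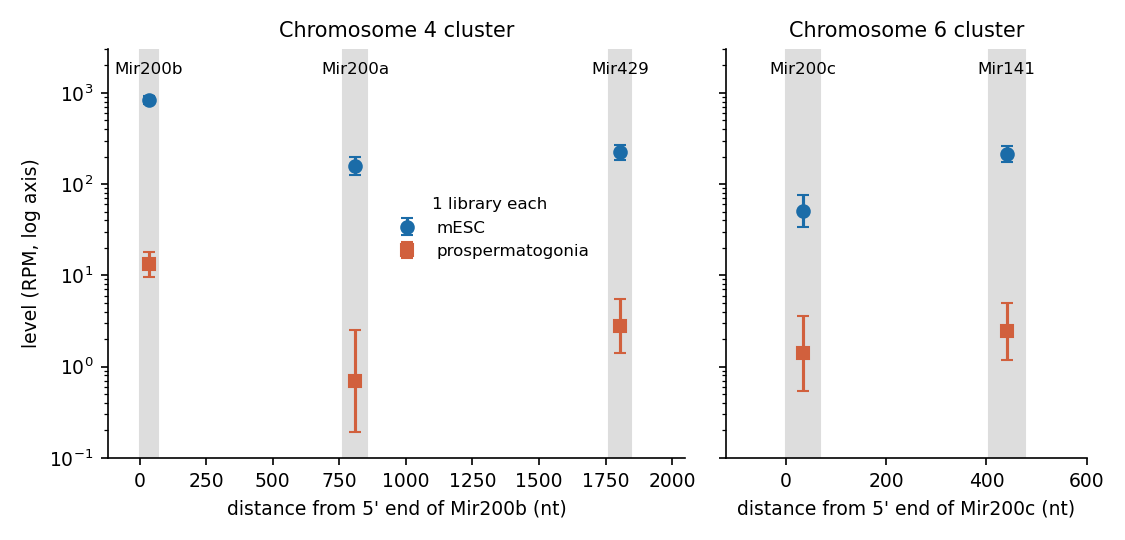
Levels of the 5 hairpins (RPM, log axis) against their distance in nt from the 5′ end of the first hairpin of each cluster, with gray bands for the hairpins and bars for 95% intervals of counting error, 1 library per cell type. All 5 mESC values lie between 51.2 and 832 RPM, and all prospermatogonia values between 0.697 and 13.2 RPM.

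By reads, the order in the mESC library was Mir200b, Mir429, Mir141, Mir200a and Mir200c. Whether the library preparation captured the different sequences equally was not tested, so that ratios between members are ratios of reads. Mir200b had 3.74 times the reads of Mir429 (3.0 to 4.66), and Mir200a had 3.09 times those of Mir200c (1.94 to 4.92). Mir429 and Mir141, with a ratio of 1.05 (0.796 to 1.39), and Mir141 and Mir200a, with a ratio of 1.34 (0.985 to 1.82), did not differ beyond counting error. In the prospermatogonia library the order was Mir200b, Mir429, Mir141, Mir200c and Mir200a. Mir200b stood above Mir429 by a ratio of 4.75 (2.25 to 10.0), and the order of the other 4 members could not be resolved at this depth, where they held 2 to 8 reads.

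The size of the difference between the libraries was compared member by member. Mir200a was 227-fold higher in mESCs (interval of the read ratio 61.2 to 839, resting on 2 reads in prospermatogonia), Mir141 86.6-fold (40.9 to 183), Mir429 79.8-fold (39.4 to 162), Mir200b 62.8-fold (45.1 to 87.6) and Mir200c 36.7-fold (13.3 to 101). On the scale of log2((prospermatogonia RPM + 1) / (mESC RPM + 1)), which understates the change of low features, the values were -6.55 for Mir200a, -5.95 for Mir141, -5.88 for Mir429, -5.87 for Mir200b and -4.45 for Mir200c. These wide intervals overlap for all 5 members. Each member was also set against the sum of the other 4. The odds ratio between the libraries was 0.293 for Mir200a (95% conditional exact interval 0.0339 to 1.15), 0.805 for Mir141 (0.300 to 1.85), 0.883 for Mir429 (0.351 to 1.95), 1.40 for Mir200b (0.780 to 2.57) and 2.02 for Mir200c (0.491 to 6.22). All 5 intervals hold 1, so that no member was shown to depart from the rest of the family at this depth, and departures of several-fold for Mir200a and Mir200c lie within the intervals.

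Summed, the family had 663 reads in mESCs and 59 in prospermatogonia. This corresponds to 1475 RPM and 20.6 RPM, a 71.7-fold higher level in mESCs (55.0 to 93.5), and a log2 ratio of -6.10. At the depth of the mESC library, the prospermatogonia level would have given 9.24 reads.

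Most miRNA features were lower in prospermatogonia, so that the members were read against that background. If the values are log2 RPM, miRNA features held 24.6% of the mESC library total and 5.41% of the prospermatogonia total. Scaling to the sum of miRNA reads in place of these totals shifts all log2 ratios up by 2.18 before the pseudocount. A filter that asked for 10 RPM in either library, or in both, left 203 features. Of these, 80.8% fell short of their mESC level by 2-fold or more in prospermatogonia, 9.85% exceeded it by as much, and the median log2 ratio was -2.52. All 5 members passed this filter and all 5 were at least 2-fold lower. However, 4 of them passed only through the mESC library, where they are high, so that their count adds nothing beyond the levels. Mir200b, at 10 RPM or more in both libraries, was 1 of 111 such features, of which 82% were at least 2-fold lower. After subtraction of the median of the 203 features, the log2 ratios were -4.03 for Mir200a, -3.43 for Mir141, -3.36 for Mir429, -3.35 for Mir200b and -1.93 for Mir200c. From the lowest ratio upward they stood at places 7, 10, 11, 12 and 34 of 203, in the same order. For the 4 members that passed only through the mESC library, the filter itself favored low ratios and low places. The place of Mir200a also rests on 2 reads in prospermatogonia, so that nothing beyond the levels is read from these places. When the median ratio of the 111 features was used for scaling, in place of the library totals, it shifted all log2 ratios by 2.37 before the pseudocount. The log2 ratios of the members then ran from -5.11 for Mir200a to -2.67 for Mir200c. Of the 203 features 36.5% were then at least 2-fold lower and 22.2% at least 2-fold higher, and nothing is read from the members' count against this share, since the same filter applies. The share of calls that were higher in prospermatogonia moved from 10.9% to 37.8% with this scaling.

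**Figure D2:**
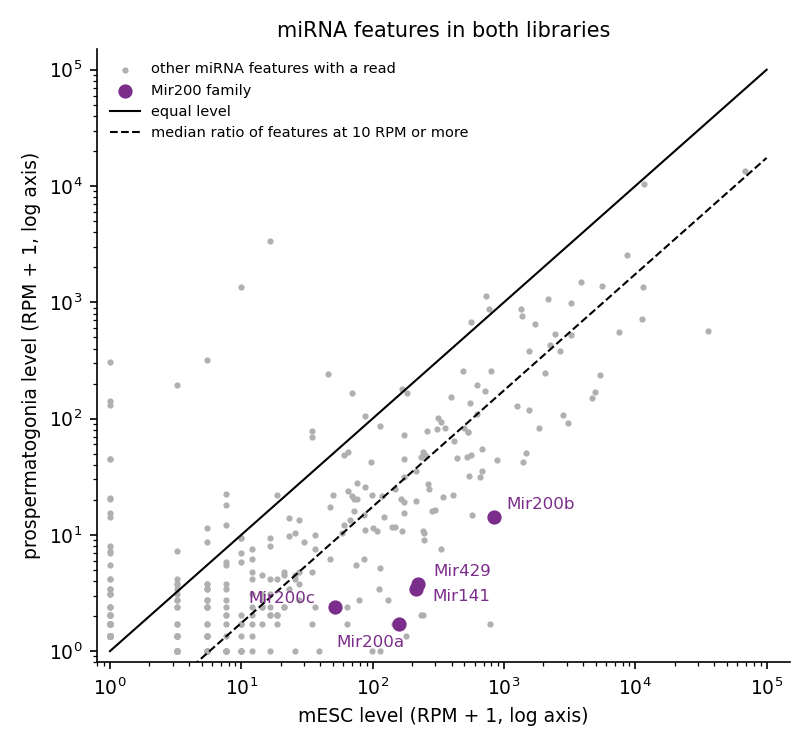
Level of each miRNA feature with a read in the prospermatogonia library against its level in the mESC library (RPM + 1, log axes), with the Mir200 family in purple, equal levels as a solid line and the median ratio of 203 features as a dashed line. All 5 members lie below the dashed line, Mir200c nearest to it.

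Shares among miRNA reads do not depend on the library totals, although comparing them amounts to scaling to the sum of all miRNA reads. The family held 0.600% of the 110455 mESC miRNA reads (0.556% to 0.648%) and 0.0380% of the 155237 in prospermatogonia (0.0295% to 0.0490%), a 15.8-fold difference (12.1 to 20.6). At the mESC share, 932 family reads would have been counted in prospermatogonia in place of 59. For the single members, the fold difference in share ranged from 8.08 for Mir200c (2.92 to 22.4) to 49.9 for Mir200a (13.5 to 185). It was 13.8 for Mir200b (9.92 to 19.3), 17.6 for Mir429 (8.68 to 35.6) and 19.1 for Mir141 (9.01 to 40.4). In bulk libraries such as these, fewer cells that express a miRNA and less of it per cell cannot be told apart.

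To compare the genomic loci, reads were summed over each cluster. The chromosome 4 cluster held 545 reads in mESCs and 48 in prospermatogonia, and the chromosome 6 cluster held 118 and 11. Their share of family reads was nearly equal in both libraries, with 82.2% from chromosome 4 in mESCs (79.1% to 84.9%) and 81.4% in prospermatogonia (69.6% to 89.3%). The ratio of chromosome 4 to chromosome 6 was 4.62 (3.79 to 5.63) in mESCs and 4.36 (2.29 to 8.31) in prospermatogonia, with an odds ratio between the libraries of 0.945 (0.466 to 2.08). The clusters thus did not differ in their change beyond counting error, and an approximately 2-fold difference in either direction lies within the interval. The chromosome 4 cluster was 72.5-fold higher in mESCs (54.0 to 97.2) and the chromosome 6 cluster 68.5-fold (37.3 to 126). Much of the excess of chromosome 4 reads came from Mir200b, which alone held 68.6% of the cluster's mESC reads (64.6% to 72.4%) and 79.2% of its prospermatogonia reads (65.7% to 88.3%). Without Mir200b the ratio was 1.45 (1.15 to 1.83) in mESCs, where a smaller excess beyond counting error was left, and 0.909 (0.396 to 2.09) in prospermatogonia, where none was resolved.

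The seed groups were compared in the same way. The hairpins with the seed AAUACUG held 497 reads in mESCs and 50 in prospermatogonia, and those with AACACUG held 166 and 9. The first group thus made up 75.0% of the family in mESCs (71.5% to 78.1%) and 84.7% of it in prospermatogonia (73.5% to 91.8%). The ratio of AAUACUG to AACACUG was 2.99 (2.51 to 3.57) in mESCs and 5.56 (2.77 to 11.1) in prospermatogonia, an odds ratio of 1.85 (0.878 to 4.38), which is not resolved from 1. Within the chromosome 4 cluster the odds ratio of the seed groups was 3.44 (0.866 to 29.9), and within chromosome 6 it was 2.34 (0.463 to 10.2). Both rest on single-digit counts in prospermatogonia, 2 reads of Mir200a on chromosome 4, and 4 reads of Mir200c and 7 of Mir141 on chromosome 6. Hairpins with AAUACUG were 63.4-fold higher in mESCs (47.5 to 84.8) and those with AACACUG 118-fold (60.9 to 227). The excess of the AAUACUG group rested on Mir200b. Without it the ratio of AAUACUG to AACACUG was 0.741 (0.587 to 0.935) in mESCs and 1.33 (0.576 to 3.09) in prospermatogonia.

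In mESCs the clusters also differed in which seed prevailed among the reads, again without a check that the sequences were captured equally. Within the chromosome 4 cluster, hairpins with AAUACUG held 474 reads against 71 for Mir200a, a ratio of 6.68 (5.21 to 8.56). Within the chromosome 6 cluster, Mir200c with that seed held 23 reads against 95 for Mir141, a ratio of 0.242 (0.154 to 0.380). In prospermatogonia the ratio was 23.0 (6.16 to 85.9) within chromosome 4 and 0.571 (0.179 to 1.83) within chromosome 6, where no prevailing seed was resolved. Mir200c therefore supplied 4.63% of the mESC reads with AAUACUG (3.10% to 6.85%), whereas Mir141 supplied 57.2% of the AACACUG reads (49.6% to 64.5%). In prospermatogonia the same 2 shares were 8.0% (3.15% to 18.8%) and 77.8% (45.3% to 93.7%), the latter of only 9 reads.

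**Figure D3:**
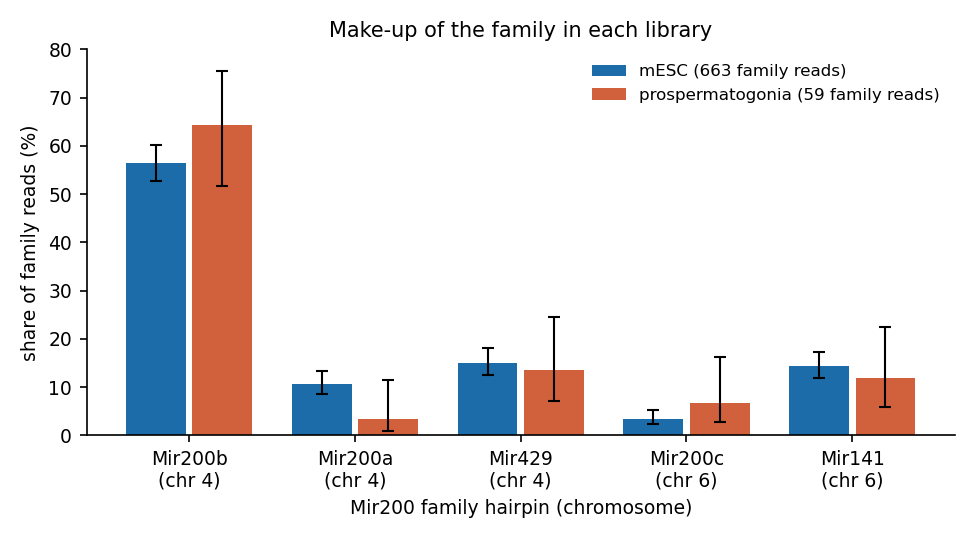
Share of family reads held by each hairpin (%), with bars for each library and error bars for 95% Wilson intervals of counting error. Mir200b held 56.4% in mESCs and 64.4% in prospermatogonia, and the intervals of the libraries overlap for all 5 hairpins.

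The libraries were checked for their labels with miRNAs known for each cell type. All 12 features of the Mir290, Mir302 and Mir367 clusters, which are known for pluripotent cells, had more than 3 reads in mESCs (27275 in sum, or 60659 RPM). In prospermatogonia 6 of them did, all from the Mir290 cluster, and the list held 5052 reads (1761 RPM), with 2058 from Mir292 and 1624 from Mir295. Of 9 listed features of an X-linked cluster known from male germ cells, 7 were matched by name. All 7 had more than 3 reads in prospermatogonia (6298 in sum), against 6 reads in sum in mESCs. Both lists were higher in the library whose label they go with, and the pluripotency list was not absent from prospermatogonia. Markers of other cell types were present in part. The blood markers Mir451, Mir144, Mir486 and Mir223 had 0 reads in mESCs and at most 1 in prospermatogonia, whereas Mir142, known from blood cells in general, had 400 and 124 reads, so that the blood list summed to 890 RPM and 43.9 RPM. Mir126, known from endothelium, had 255 and 40 reads, or 567 RPM and 13.9 RPM. Of the miRNAs known from gonadal soma, Mir202 had 0 and 57 reads and Mir140 had 280 and 558. Mir142 and Mir126 were at least 2-fold higher in the mESC library under every scaling tried, as the family was, and Mir202 was higher in prospermatogonia. Mir140 was higher in mESCs in RPM, with a log2 ratio of -1.67, but not with median ratio scaling, where it was 0.69. Whether blood, endothelial or gonadal somatic cells were present in either sample, or had a part in the difference of the family, was not tested.

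The family was set beside other miRNAs associated with epithelia (Mir203, Mir205, Mir375, Mir192, Mir194-1, Mir194-2, Mir215 and Mir31). Of these 8 features, 5 passed the filter. Mir192, Mir203, Mir31 and Mir205 were at least 2-fold lower in prospermatogonia, and Mir375, known from pancreatic islets and other secretory epithelia, was at least 2-fold higher. These 4 of 5 features are close to the 80.8% of all 203 features that were lower, and the count shows nothing particular to the list. Their median log2 ratio was -2.35, close to the -2.52 of all 203 features. The 5 family members ranged from -6.55 to -4.45. Of these members, 4 passed the filter only through the mESC library, which favored low ratios, so that nothing is read from this range against the list. Mir205, a miRNA of stratified epithelia, had 105 reads in mESCs and 132 in prospermatogonia and was 5.08-fold higher in mESCs (3.93 to 6.55), and Mir31 with 112 and 138 reads was 5.18-fold higher (4.04 to 6.64). Mir192 had 185 and 60 reads, a 19.7-fold difference (14.7 to 26.3), and Mir203, a skin miRNA, had 12 and 5 reads, a 15.3-fold difference (5.63 to 41.7). Mir375 went the other way, with 15 and 221 reads and a 2.31-fold higher level in prospermatogonia (1.38 to 3.87). Mir194-1 and Mir194-2 had no read in either library and Mir215 had 1 read in each. The epithelial miRNAs outside the family thus did not share one direction. With median ratio scaling the log2 ratios were -1.92 for Mir192, -1.47 for Mir203, 0 for Mir31, 0.03 for Mir205 and 3.54 for Mir375. Mir203 passed the filter only through the mESC library, so that its place among the lower features was favored by the filter.

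Of 9 miRNAs associated with mesenchyme, 6 passed the filter, of which 5 were at least 2-fold lower in prospermatogonia, near the 80.8% of all 203 features, and 0 higher, with a median log2 ratio of -4.97 (-4.55 with Mir145, which had no read in prospermatogonia, set to 3 reads there). Mir21 had 2215 reads in mESCs and 486 in prospermatogonia, a log2 ratio of -4.85, and Mir143 had 1393 and 260, a ratio of -5.08. Mir214 had 28 and 2 reads, Mir145 had 17 and 0, and Mir155 had 13 and 22. Mir10b, with 250 and 1922 reads and a log2 ratio of 0.27, differed by less than 2-fold. In sum, the mesenchymal features had 8716 RPM in mESCs and 938 RPM in prospermatogonia, against 1475 and 20.6 RPM for the epithelial Mir200 family. With median ratio scaling 4 of the 6 were at least 2-fold lower, against 36.5% of all 203 features, Mir10b was higher at 2.64, and Mir155 turned from -1.79 to 0.44. Mir214, Mir145 and Mir155, 3 of the 5 lower features, passed the filter only through the mESC library, so that the filter favored their place among them, and Mir145, with 0 reads in prospermatogonia, cannot move with the scaling. Mir21 and Mir143, well above 10 RPM in both libraries, were lower in prospermatogonia under every scaling tried, and Mir199a-1 and Mir199a-2 were at 0 reads in both libraries. Whether mesenchymal cells in either sample contribute to these values was not tested.

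**Figure D4:**
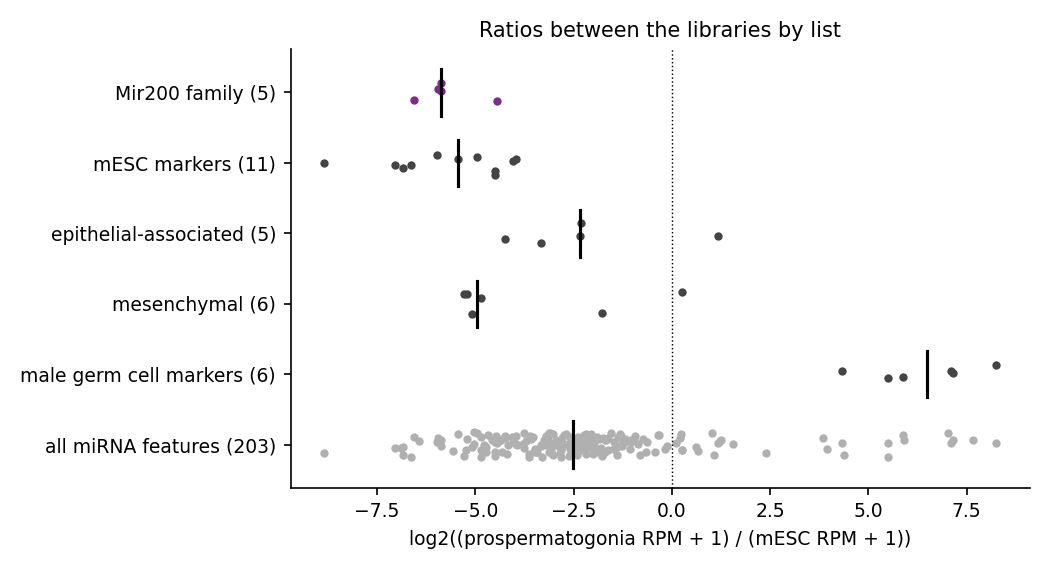
Log2 ratio of prospermatogonia to mESC, computed from RPM + 1, for each feature at 10 RPM or more in at least 1 library, by list, with the number of features in parentheses and the median as a black line. The Mir200 family lies between -6.55 and -4.45, with 4 of its members past the filter only through the mESC library, and the median of all 203 features is at -2.52.

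A comparison with other clusters showed how the family differs from them. The cluster of Mir182, Mir183 and Mir96, which is also found in epithelia, held 35998 reads in mESCs and 42850 in prospermatogonia, a 5.36-fold higher level in mESCs in RPM (5.29 to 5.44). As a share of miRNA reads the cluster was 1.18-fold higher in mESCs (1.16 to 1.20). With median ratio scaling the log2 ratio was -1.71 for Mir96, -0.72 for Mir183 and 0.04 for Mir182, so that the size of the difference rests largely on the scaling. The odds ratio of the family against this cluster was 0.0748 (0.0563 to 0.0977), so that the family was lower in prospermatogonia relative to it by far more than counting error. The Mir302 and Mir367 cluster held 240 and 4 reads, a 383-fold difference (148 to 992). The odds ratio of the family against that cluster was 5.33 (1.94 to 20.4), and the family fell between both clusters.

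For each member, the feature outside the family with the nearest levels in both libraries was sought among 198 features, as the distance in log2(RPM + 1) over the 2 libraries. For Mir200b it was Mir126, with 255 reads in mESCs and 40 in prospermatogonia, at a distance of 0.56. For Mir200a it was Mir34a, with 65 and 2 reads, at 0.13. Mir429 and Mir141 both had Mir302d, with 105 and 3 reads, as the nearest feature, at 0.89 and 0.76. For Mir200c it was Mir100, with 28 and 4 reads, at 0.28. With only 2 libraries, such likeness means no more than similar levels in both.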

How the data were processed

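smRNA-seq libraries of mESCs and prospermatogonia, 1 each, were analysed. The authors cut a size range from a gel, removed adapters and poor reads (Trim Galore 0.4.1 in the submitters' processing notes), mapped with Bowtie through piPipes, and deposited log2 values per miRNA feature. The methods name mm9 and the notes GRCm38. The positions of 1300 of 1638 features, all 5 members among them, were those of miRNA genes in GENCODE vM21, so that GRCm38 is used here. How mapped reads became values, with or without strand, is not given in the sources used here.

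In linear form, each value but the lowest was a whole number of reads, to within 0.0165 reads, times a factor particular to the library. The lowest value, entered as 0.9 reads, was set to 0 reads (1353 features in mESCs and 1321 in prospermatogonia). If the values are log2 RPM, as the supplement has it for the RNA-seq tables, 1 read equals 2.22 and 0.348 RPM. RPM, folds and library totals rest on this reading, whereas reads and shares do not. Whether reads could be recovered was not known when the design was set.

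Log2 ratios used a pseudocount of 1 RPM. Counts of features past 2-fold used those at 10 RPM or more in at least 1 library. Shares and read ratios carry 95% Wilson intervals, odds ratios conditional exact ones. The members and lists were chosen with earlier results of these data known. Named features were the members, the nearest feature to each, and list members at 10 RPM or more in at least 1 library. Other list members, Mir182, Mir183 and Mir96 were named outside this rule, after their values were seen. The germ cell markers Mir871 and Mir743b were not matched by name and were not used in the sums. Features under the names mmu-mir-871.1 (0 reads in mESCs and 369 in prospermatogonia) and mmu-mir-743b.1 (7 and 9619 reads) were present. Alternatives were other pseudocounts, scalings, filters and thresholds. The scripts were tested on simulated data. Statistics were computed with scipy 1.17.1 and tables with pandas 2.3.3 and numpy 2.4.6 in Python 3.11.15. Figures were drawn with matplotlib 3.10.9.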

Additional observations from a re-analysis of the deposited data

How the results depend on the processing

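Leaving out a replicate was not possible with 1 library per cell type. No paired analysis was possible, since the design holds 1 library of a cell line and 1 of embryonic germ cells, and no test was run. The log2 ratio of the family sum, -6.10, lay between -6.16 and -5.86 with pseudocounts of 0.1 and 5 and without one (the last chosen after seeing the data). It was -3.78 with median ratio scaling, -3.97 with scaling to all miRNA reads and -3.90 when the 10 most abundant features of either library were left out of that sum, since these move ratios up by 2.37, 2.18 and 2.26 before the pseudocount, and low features by less. The log2 ratios of the 5 members kept their sign under each of these settings. All 5 members were at least 2-fold lower under each of them, where the 3 scalings left 74, 81 and 78 of 203 features lower. The same count held at a 4-fold threshold and with all features above the lowest value. For these settings and the other pseudocounts the share of all features was not computed, so that nothing is read from the count there. The count of 5 is no sign of stability, since 4 members passed the filter only through the mESC library. It was 1 with 10 RPM or more required in both libraries, since only Mir200b passes that filter. None was 2-fold higher under any setting. The family's share of miRNA reads, 0.600% in mESCs and 0.0380% in prospermatogonia, was 0.622% and 0.0387% with named features only, and 2.16% and 0.144% without those 10 features per library, since the total shrinks. Without Mir200b, the highest member, the ratio of chromosome 4 to chromosome 6 fell from 4.62 to 1.45 in mESCs and from 4.36 to 0.909 in prospermatogonia, and the ratio of AAUACUG to AACACUG fell from 2.99 to 0.741 in mESCs and from 5.56 to 1.33 in prospermatogonia. As a mean per hairpin these ratios were 3.08 and 2.91 for the clusters and 2.0 and 3.70 for the seed groups. The odds ratios between the libraries were 0.628 and 1.80 without Mir200b, and a mean per hairpin cannot change them. For the lists, settings were chosen after seeing the data. With the 3 scalings in the same order, the median of the epithelial list was 0, -0.19 and -0.12, and that of the mesenchymal list -2.60, -2.79 and -2.72. With a pseudocount of 5 the mesenchymal median was -3.33. Depth limits the members in prospermatogonia, where 4 of them held 2 to 8 reads.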
